A study of Mus musculus with 6 samples.

Results

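Polycomb repressive complex 2 (PRC2) was examined through the transcripts of 10 of its subunits in the cortex of mouse embryos with and without the RNA-binding protein Ybx1. The subunits were taken by gene symbol and not by any measured value: the catalytic subunits Ezh2 and Ezh1, the core subunits Eed and Suz12, the histone chaperones Rbbp4 and Rbbp7, and the accessory subunits Mtf2, Phf19, Jarid2 and Aebp2. All 10 were found among the 17348 genes listed, and all 10 were among the 13340 genes with enough counts to be tested. RNA came from the cortex of E13.5 embryos, with 3 libraries from embryos labelled WT and 3 from embryos labelled cKO. According to the study's methods, the cKO embryos carried Nestin-Cre with both Ybx1 alleles floxed. The floxed line was made in C57BL/6J mice. Cre removes a run of Ybx1 exons, and the comparison animals were littermates without the deletion, for which the study names Ybx1 fl/fl mice as its controls. Nestin-Cre is active in neural progenitors and is inherited by their progeny, so blood, vessel and meningeal cells in the tissue are not its targets. The labels give neither the sex of the embryos nor whether a library held 1 embryo or several.

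PRC2 places methyl groups on lysine 27 of histone H3 (H3K27), a mark of silenced genes. Ezh2 or its paralog Ezh1 carries the methyltransferase activity, Suz12 holds the complex together, Eed reads the mark that the complex has made and stimulates the enzyme, and Rbbp4 or Rbbp7 contacts histones. Around this core form alternative complexes, with a Polycomb-like protein (Mtf2, Phf19 or Phf1) in one and Jarid2 with Aebp2 in the other. In the developing cortex Ezh2 is abundant in dividing progenitors, and PRC2 takes part in the timing of neurogenesis and in keeping genes of other lineages and body regions silent.

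The start regions of the subunit genes are shown for the inverted CCAAT box, also called the Y-box, from which Y-box binding proteins such as Ybx1 take their name. RefSeq promoter windows on GRCm38.p6, from 250 bases before to 50 bases after a transcript start, were available for 10 of 10 subunits, some with more than 1 start. The letters CCAAT were searched on both strands, so that ATTGG counts as a match too, and positions give the distance of the first letter of the match from the start. Matches are printed for 5 subunits, 2 for Ezh2 and 1 for each of the others. Each has 9 flanking bases and is read on the strand of the gene, with the match in capitals.
Ezh2, chr6:47595107-47595129, minus strand, position -90: ggccctctgATTGGacgggcgcc
Ezh2, chr6:47595081-47595103, minus strand, position -64: tcgcatcctCCAATcggagaggc
Suz12, chr11:79993036-79993058, plus strand, position -61: tcccgccggCCAATcagagcgcc
Rbbp7, chrX:162760308-162760330, plus strand, position -55: tcgcacgctATTGGtccaagccg
Rbbp4, chr4:129335383-129335405, minus strand, position -26: cgctttctcATTGGtcggtgttg
Jarid2, chr13:44730586-44730608, plus strand, position -179: ctccgcgggCCAATcccgagcca

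Of the 10 subunits, 8 held at least 1 match in a window, and the same was true of 43.5% of the 10638 tested genes with a window. Of the 14 windows of the subunits, 9 held a match, and of all 32851 windows 37.4% did. Ezh2 held 3 matches in its window, the last at position -11. The transcript start used for Ezh2 lies inside the annotated span of the gene given below, and so do these 3 matches. A further match lay at position -1 in Rbbp7 and at position 17 in another window of Jarid2. The bases after the start of the Rbbp7 window were not found in its GENCODE M21 transcripts, whereas those of all windows of the other subunits were. Positions in Rbbp7 therefore rest on the RefSeq start only. Eed had a match at position 26, downstream of its start, and in Mtf2 and Aebp2 matches lay only in windows of alternative starts. Ezh1 and Phf19 had none in their windows. The letters TTTCGCGC or TTTGGCGC, which resemble the site of the E2F cell cycle factors, were found on either strand in the window of 1 subunit, Ezh2 (TTTGGCGC at position 4), and in 1.72% of tested genes. These matches describe letters only. Binding at these regions was not measured.

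As a check of the labels, Ybx1 itself was read in each library. Values per library are CPM, that is, counts scaled to a common normalised library total. Ybx1 reached 1021, 528 and 1220 CPM in WT replicates 1, 2 and 3, and 83.1, 117 and 147 CPM in cKO replicates 1, 2 and 3. The genotypes did not overlap, but the library labelled WT replicate 2 was intermediate and so goes partly against its label. In edgeR's quasi-likelihood test the log2 fold change was -3.00 ± 0.33 (standard error, SE) and the adjusted p (Benjamini-Hochberg, all tested genes) was 0.128. Without the library labelled WT replicate 2, the log2 fold change was -3.28 and the adjusted p 0.0206 in the same edgeR test. Libraries held between 15907491 and 16282929 estimated counts. A second library, cKO replicate 3, stood apart through genes of skin and connective tissue: 7 epidermal genes summed to 4066 counts there and to 159 to 189 elsewhere, and 5 genes of meninges and fibroblasts summed to 6203 counts and to 119 to 208 elsewhere. Not every gene of these lists was raised there. Foxc1 had 18 counts there and 14 to 40 elsewhere, Krt10 114 and 116 to 141, and Krt1 25 and 16 to 23. The other genes of both lists were far higher there than elsewhere. The cortical identity genes Emx1, Emx2 and Lhx2 were abundant in all libraries, Lhx2 with 520.2 to 679 CPM and Emx2 with 73.5 to 96.5 CPM. PRC2 results are therefore given with and without these 2 libraries where they rest on them.

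Subunits were compared with one another on TPM values, which are scaled for transcript length, and ordered by the mean over 6 libraries (SD in the same unit). Ezh2 came first at 263 ± 9.73 TPM, and 4.55% of the 12793 genes with a mean of at least 1 TPM were higher. The chaperones Rbbp7 (201 ± 21.9 TPM) and Rbbp4 (199 ± 9.04 TPM) followed and could not be ordered, since Rbbp7 was the higher in only 3 of 6 libraries. Suz12 had 99.2 ± 4.64 TPM, Mtf2 had 83.9 ± 6.80 and Eed had 52.1 ± 4.09. The ranges of Suz12 and Mtf2 over the libraries overlapped, although Suz12 was above Mtf2 within each of the 6 libraries. Jarid2 (36.9 ± 3.50 TPM) and Aebp2 (26.7 ± 1.42 TPM) lay below the core, near the middle of all expressed genes, with 40.6% and 50.8% of these genes higher. At the lower end were Ezh1 (9.14 ± 1.06 TPM) and Phf19 (5.48 ± 1.53 TPM), whose ranges overlapped, with Ezh1 the higher in 5 of 6 libraries. Ezh1 made up 2.63% to 4.09% of the summed Ezh1 and Ezh2 TPM of a library, and Phf19 lay below Mtf2 in every library.

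**Figure D1:**
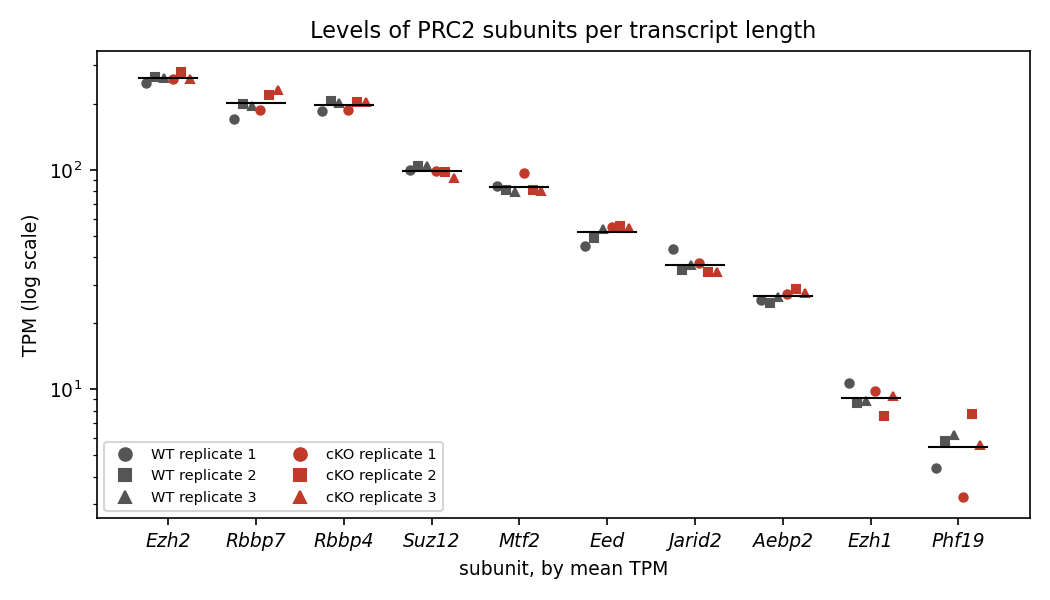
TPM on a log scale (vertical axis) for each PRC2 subunit, ordered by mean TPM (horizontal axis), with 1 point per library and a bar at the mean of 6 libraries. Levels run from 263 TPM for Ezh2 to 5.48 TPM for Phf19, and the WT and cKO points of a subunit lie close together, without overlap for Eed, Suz12 and Aebp2 and with overlap for the other 7.

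Whether loss of Ybx1 was accompanied by a change in PRC2 transcripts was asked next. No subunit passed the test for a difference between genotypes. At an adjusted p under 0.05, 0 of 10 were higher and 0 of 10 were lower in cKO in edgeR's test, and the background was the same, with 0% of the 13340 tested genes higher and 0% lower. At an unadjusted p under 0.05 the count was again 0 of 10, where 3.57% of all tested genes passed, 1.75% higher and 1.81% lower in cKO. In CPM, the WT and cKO libraries overlapped for 10 of 10 subunits, whereas for 9.04% of all tested genes they did not, 4.21% higher and 4.83% lower in cKO. In TPM, which was compared after the data had been seen, 3 of 10 subunits did not overlap, with Eed and Aebp2 higher and Suz12 lower in cKO, where 8.57% of all tested genes did not overlap, 4.62% higher and 3.95% lower. The overlap of these 3 subunits thus depends on the unit. DESeq2, limma-voom and limma on log2 TPM also called 0 of 10 subunits, both at an adjusted and at an unadjusted p under 0.05. By sign, 6 fold changes were above 0 and 4 below, with a median log2 fold change of 0.02, and the median over all tested genes was 0.0019. The median size of the log2 fold change, regardless of sign, was 0.10 for the subunits and 0.078 for all tested genes. On the log2 scale, the libraries of 1 genotype spread further than the genotype means lay apart for 10 of 10 subunits in CPM and for 9 of 10 in TPM, the exception being Aebp2. In whole tissue, fewer cells of a type and less RNA per cell cannot be told apart.

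**Figure D2:**
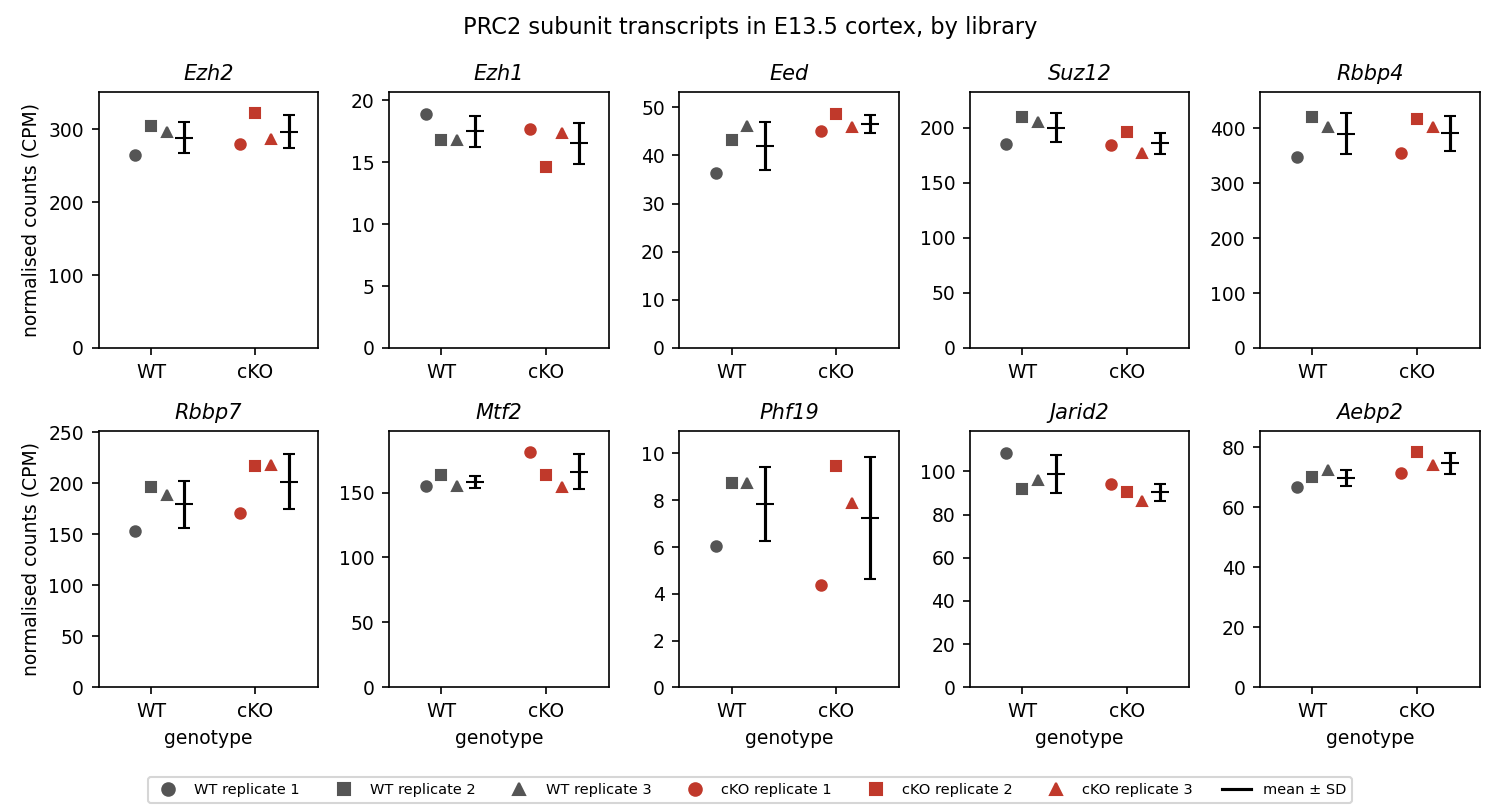
Normalised counts (CPM, vertical axis, starting at 0) of the 10 subunits in each of the 3 WT and 3 cKO libraries, with the mean and SD of each genotype beside the points. The WT and cKO points overlap in every panel. WT replicate 1 is the lowest library for 5 subunits.

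Among the catalytic subunits, Ezh2 gave 264, 304 and 296 CPM in WT replicates 1, 2 and 3 and 280, 322 and 287 CPM in cKO replicates 1, 2 and 3. The lowest value was from a WT library and the highest from a cKO library, with the other 4 in between. Ezh2 had a log2 fold change of 0.04 ± 0.09 (SE), and the 95% interval of the fold (cKO over WT) ran from 0.893 to 1.18. Ezh1, the paralog with weaker activity that prevails in non-dividing cells, gave 18.9, 16.8 and 16.7 CPM in WT and 17.7, 14.6 and 17.3 CPM in cKO. Ezh1 had a log2 fold change of -0.08 ± 0.11 (SE), with a fold between 0.792 and 1.13. The ratio of Ezh2 to Ezh1 TPM was 23.4, 30.5 and 29.7 in WT and 26.6, 37.0 and 27.9 in cKO. These ratios overlapped, with a log2 difference of 0.12 (two-sided exact permutation p = 0.6, 0.75 after adjustment over 5 ratios).

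The core subunits leaned in opposite directions, neither past the test. Eed gave 36.4, 43.2 and 46.1 CPM in WT and 45.05, 48.6 and 45.9 CPM in cKO. WT replicate 1 was the low library, and the other 2 WT libraries lay close to or within the cKO range. For Eed the log2 fold change was 0.15 ± 0.10 (SE), with a fold between 0.945 and 1.302 and an unadjusted edgeR p of 0.173. Without WT replicate 1 it was 0.06. In TPM the genotypes did not overlap, with 45.2, 49.1 and 53.5 in WT and 55.2, 55.4 and 54.2 in cKO, and limma on log2(TPM + 1) gave an unadjusted p of 0.0794. Suz12, without which the other core subunits are unstable, gave 185, 210 and 206 CPM in WT and 184, 196 and 177 CPM in cKO. The cKO libraries lay lower on average, but WT replicate 1 fell among them. Its log2 fold change was -0.11 ± 0.08 (SE), with a fold between 0.821 and 1.05. In TPM it gave 100.2, 103.9 and 103.9 in WT and 98.4, 97.5 and 91.5 in cKO, again without overlap, and an unadjusted limma p of 0.137. Leaving out the intermediate WT library and cKO replicate 3 together gave -0.04 for Suz12 and 0.18 for Eed on the log2 scale. For the other 8 subunits the same omission gave between -0.15 (Jarid2) and 0.18 (Rbbp7).

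Rbbp4 and Rbbp7, which also serve other chromatin complexes, were, with Ezh2, among the most abundant members. Rbbp4 gave 348, 420 and 402 CPM in WT and 355, 416 and 401 CPM in cKO, nearly the same values in both genotypes. Its log2 fold change was 0.00 ± 0.10 (SE), with a fold between 0.855 and 1.17. Rbbp7 gave 153, 196 and 188 CPM in WT and 171, 216 and 218 CPM in cKO, and cKO replicate 1 lay within the WT range. Rbbp7 had a log2 fold change of 0.17 ± 0.13 (SE), with a fold between 0.918 and 1.38. Without WT replicate 1 the log2 fold change was 0.072. The ratio of Rbbp4 to Rbbp7 TPM was 1.09, 1.03 and 1.03 in WT and 0.9999, 0.929 and 0.888 in cKO, so each cKO library lay below each WT library. The log2 difference was -0.16, and the two-sided exact permutation p was 0.1, the smallest that 3 against 3 libraries allow, or 0.25 after adjustment. The log2 difference was -0.13 with the intermediate WT library and cKO replicate 3 left out. Rbbp7 lies on the X chromosome. The 3 libraries with counts of the Y-linked gene Ddx3y had 180 ± 33.4 CPM and the 3 without had 200 ± 14.4 CPM (SD), and the part of sex in the ratio was not tested.

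The Polycomb-like subunits bring the complex to CpG-rich DNA. Mtf2 gave 155, 164 and 155 CPM in WT and 181, 163 and 154 CPM in cKO. cKO replicate 1 was the highest library and cKO replicate 3 the lowest. Mtf2 had a log2 fold change of 0.07 ± 0.08 (SE), with a fold between 0.928 and 1.19. Phf19 had only 70 to 151 estimated counts in a library and was the least precise subunit, with 6.03, 8.74 and 8.75 CPM in WT and 4.37, 9.47 and 7.90 CPM in cKO. Both the lowest and the highest value came from cKO libraries. Its log2 fold change was -0.11 ± 0.28 (SE), and a fold between 0.588 and 1.45 is compatible with these counts. Without cKO replicate 1 it was 0.15. The ratio of Mtf2 to Phf19 TPM ranged from 12.9 to 19.4 in WT and from 10.6 to 30.03 in cKO (log2 difference 0.13, two-sided exact permutation p = 0.8, also 0.8 after adjustment).

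Jarid2, which helps to recruit PRC2 and stimulates it on nucleosomes, gave 109, 92.1 and 96.0 CPM in WT and 94.2, 90.3 and 86.5 CPM in cKO. cKO replicate 1 lay above WT replicate 2, so that the groups overlapped by 1 library each. Jarid2 had a log2 fold change of -0.13 ± 0.08 (SE), with a fold between 0.804 and 1.04 and an unadjusted edgeR p of 0.14. Without WT replicate 1 it was -0.05. Aebp2, its partner, gave 67.0, 70.0 and 72.4 CPM in WT and 71.3, 78.5 and 74.2 CPM in cKO. Here WT replicate 3 lay above cKO replicate 1. Aebp2 had a log2 fold change of 0.10 ± 0.07 (SE), with a fold between 0.961 and 1.19. In TPM its libraries did not overlap, with 25.6, 24.8 and 26.2 in WT and 27.3, 28.7 and 27.6 in cKO, and an unadjusted limma p of 0.145. Taken as a ratio of TPM, Jarid2 to Aebp2 was 1.70, 1.41 and 1.40 in WT and 1.39, 1.20 and 1.24 in cKO. Each cKO library lay below each WT library, the nearest being 1.39 against 1.40. The log2 difference was -0.23 (two-sided exact permutation p = 0.1, the smallest possible, and 0.25 after adjustment over 5 ratios), and it was -0.26 without the intermediate WT library and cKO replicate 3. The balance of the alternative complexes, taken as summed TPM of Mtf2, Phf19 and Phf1 over that of Jarid2 and Aebp2, was 1.64, 1.73 and 1.62 in WT and 1.93, 1.68 and 1.67 in cKO. cKO replicate 1 was the highest and the other cKO libraries lay within the WT range (log2 difference 0.08, two-sided exact permutation p = 0.4, or 0.667 after adjustment).

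**Figure D3:**
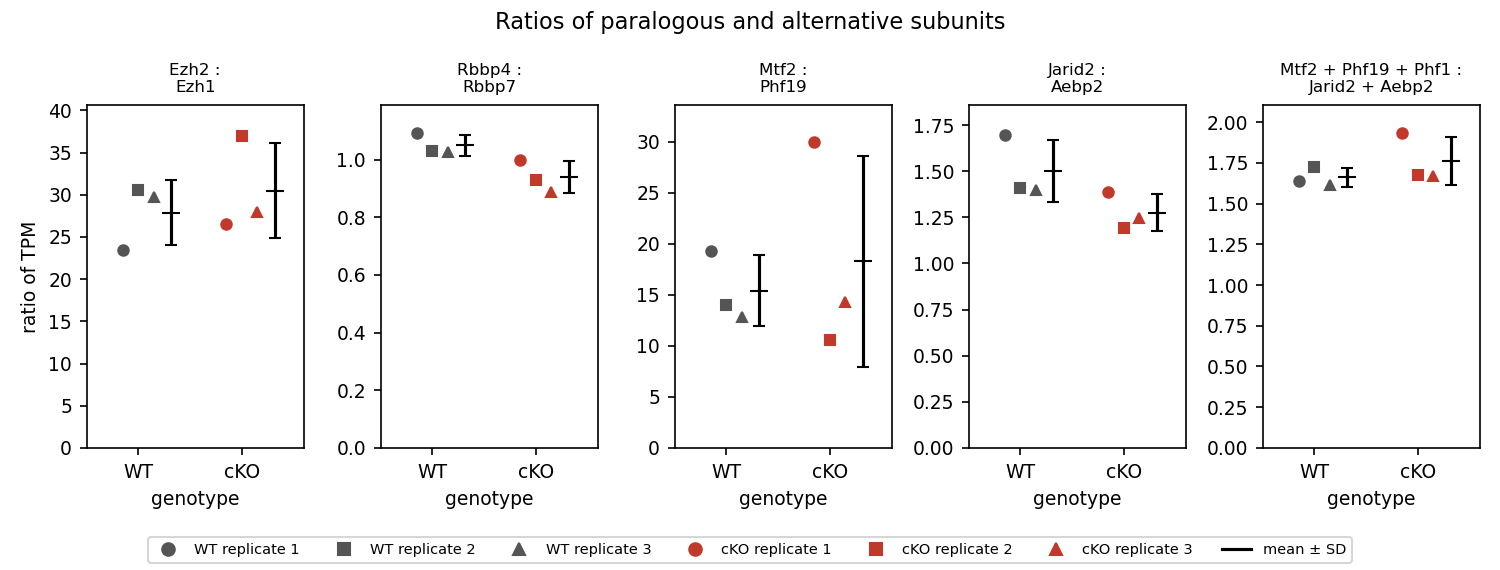
Ratios of TPM within a library (vertical axes, starting at 0) for 4 pairs of subunits and for the sums of the alternative accessory subunits, with 1 point per library and the mean and SD of each genotype. Only the Rbbp4 to Rbbp7 and Jarid2 to Aebp2 panels have all cKO points below all WT points, both with an exact permutation p of 0.1.

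The 10 fold changes were then set against those of all genes. Over all tested genes, the log2 fold change had its 2.5 and 97.5 percentiles at -0.31 and 0.60, and its quartiles at -0.07 and 0.09. All 10 subunits lay within the outer limits, between -0.13 (Jarid2) and 0.17 (Rbbp7), and 7 of 10 lay outside the quartiles. The 95% intervals of 10 of 10 subunits included 0. For the 9 subunits other than Phf19 these intervals left room for a change of at most 1.38-fold upward (Rbbp7) and of a fold down to 0.792 (Ezh1).

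**Figure D4:**
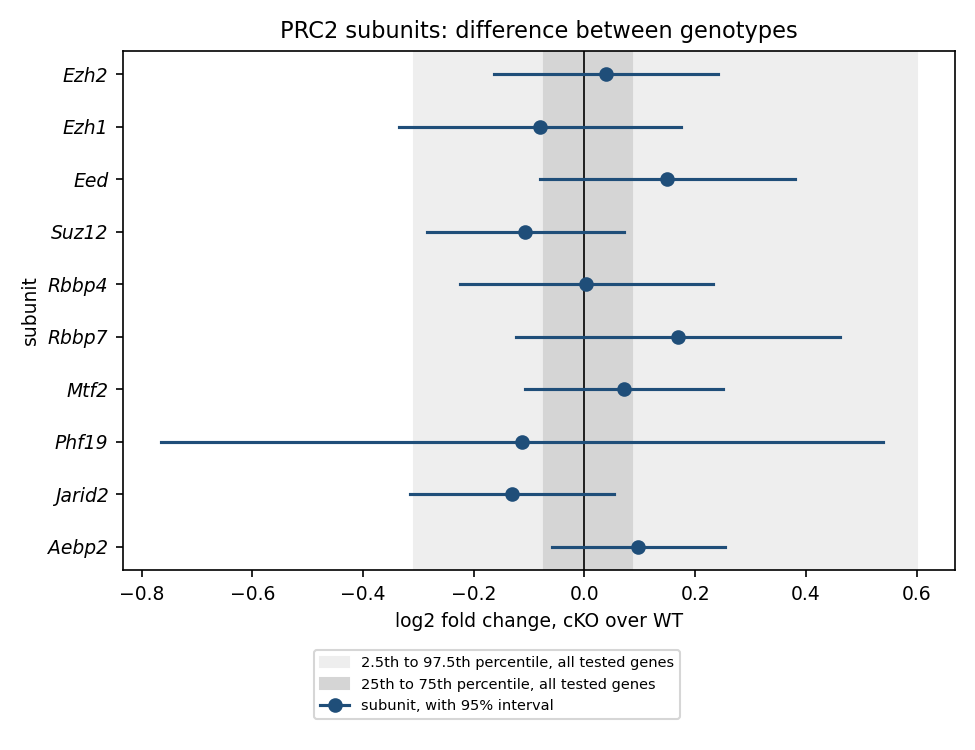
Log2 fold change, cKO over WT (horizontal axis), of each PRC2 subunit with its 95% interval, over bands for the 2.5 to 97.5 and 25 to 75 percentiles of all tested genes. Every interval crosses 0, and the interval of Phf19 (-0.77 to 0.54) is the widest.

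Some libraries were low or high for many subunits at once. WT replicate 1 was the lowest library for 5 of 10 subunits and cKO replicate 2 the highest for 4. The median log2 deviation of the subunits from their 6-library mean was -0.12 in WT replicate 1 and -0.04 in cKO replicate 1, against 0.11 in cKO replicate 2 and 0.02 to 0.04 in the other 3. Markers of dividing cells moved with this. Over 14 S phase genes, the median log2 deviation was -0.24 in WT replicate 1 and -0.32 in cKO replicate 1, and it was highest in cKO replicate 2, at 0.24. Over 8 radial glial genes it was -0.24 and -0.21 in WT replicate 1 and cKO replicate 1 and 0.28 in cKO replicate 2, whereas over 8 neuronal genes it was 0.12 and 0.20 in the former libraries and -0.13 in the latter. Single subunits followed this to different extents. Ezh2, Rbbp4, Rbbp7 and Phf19 were low in both WT replicate 1 and cKO replicate 1, with Phf19 at -0.28 and -0.74. Suz12 (-0.059 and -0.065) and Aebp2 (-0.107 and -0.016) were also below 0 in both. Jarid2 and Ezh1 went the other way in WT replicate 1, at 0.20 and 0.16, and Mtf2 was at its highest in cKO replicate 1, at 0.16. The part of cell composition in the differences between libraries was not tested. One marker list moved with genotype: of 8 tested genes of interneurons and ventral forebrain, 5 were higher in cKO at an unadjusted p under 0.05 in edgeR and 0 at an adjusted p, with a median log2 fold change of 0.66, or 1.003 without WT replicate 3. Their summed level was 148 to 208 CPM in WT and 217 to 239 CPM in cKO, and its part in the subunit values was not tested. The summed levels of erythroid (378 to 652 CPM), endothelial (56.1 to 79.5 CPM), microglial (16.3 to 27.3 CPM) and choroid plexus genes (0.125 to 0.565 CPM) overlapped between genotypes.

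Other proteins of the Polycomb system were read from the same fit. Of 5 further PRC2-associated proteins, 4 were tested and 0 passed an unadjusted p under 0.05, from Epop, which limits the Jarid2 form of the complex, at a log2 fold change of -0.14 to the Polycomb-like protein Phf1 at 0.09. Ezhip, an inhibitor of the enzyme, had at most 2 counts in any library and was not tested. Of 23 PRC1 subunits, members of the complex that marks histone H2A, 0 passed, 10 fold changes were above and 13 below 0, and the median log2 fold change was -0.02. The lowest was Bmi1, a RING-finger partner of the ubiquitin ligase, at -0.13 ± 0.08 (SE). The 4 genes of the H2A deubiquitinase complex, which removes the mark of PRC1, were all below 0 in log2 fold change without passing the test, from -0.09 (Asxl1) to -0.23 (Asxl3). The unadjusted edgeR p of Asxl3 was 0.0854. A list of 8 genes held trithorax and other histone methyltransferases and H3K27 acetyltransferases, which counteract PRC2. These were also all below 0 without passing, from -0.03 (Kmt2b) to -0.15 (Crebbp), with a median of -0.08. Of all 13340 tested genes, 6566 were below 0. With single libraries left out, the median ran from -0.13 to -0.02 here and from -0.15 to -0.08 for the deubiquitinase genes. Whether the genes of either list moved together was not tested. In this list 1 of 8 genes had no overlap between genotypes, where 9.04% of all tested genes had none, 4.83% lower in cKO. It was Nsd1, named after its values were seen, with 405, 408 and 397 CPM in WT and 365, 376 and 360 CPM in cKO. Its unadjusted edgeR p was 0.0742.

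The demethylases that remove the PRC2 mark varied between libraries in a way that did not follow genotype. Kdm6a, which is encoded on the X chromosome, gave 65.2, 102.5 and 96.3 CPM in WT and 63.5, 99.1 and 63.0 CPM in cKO. Its Y-linked paralog Uty gave 37.7, 0.682 and 1.12 CPM in WT and 43.5, 1.38 and 41.2 CPM in cKO, and Ddx3y was detected in the same 3 libraries in which Uty was high. Kdm6a had 63.9 ± 1.15 CPM in the 3 libraries with Ddx3y and 99.3 ± 3.15 CPM in the 3 without (SD), with no overlap. The sum of Kdm6a and Uty TPM was 41.2, 35.8 and 34.2 in WT and 42.9, 34.7 and 40.8 in cKO. Because the cKO group held 2 of the libraries with Ddx3y and the WT group 1, genotype and sex are partly mixed in the fold change of Kdm6a. Its log2 fold change was -0.23 ± 0.22 (SE), with an unadjusted edgeR p of 0.328. Kdm6b, the autosomal demethylase, gave 273, 172 and 198 CPM in WT and 268, 197 and 184 CPM in cKO, highest in WT replicate 1 and cKO replicate 1, with a log2 fold change of 0.01 ± 0.19 (SE).

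The Hox genes, the classic targets of Polycomb silencing, were at or near 0 in 5 of 6 libraries. Of these genes 23 were listed and 0 had enough counts to be tested. Their summed counts were 1, 0 and 3 in WT replicates 1, 2 and 3, 1 and 0 in cKO replicates 1 and 2, and 442 in cKO replicate 3. All 23 had counts in cKO replicate 3, though Hoxa6, Hoxb7, Hoxc8 and Hoxd11 had only 1 count each. Outside that library only Hoxa3, Hoxc4, Hoxc6 and Hoxc8 had any. Hox genes that were not listed could not be read, so the number detected may follow from which genes were listed. No conclusion is drawn from that number. Hoxd8 reached 3.801 CPM in cKO replicate 3 and was without counts elsewhere, where 0 counts allow up to 0.188 CPM. In the same library the PRC2 subunits were not low as a group, with a median log2 deviation of 0.04, although 3 of them, Suz12, Jarid2 and Mtf2, had their lowest value there. It is also the library with the high sums of epidermal and connective tissue genes given above, and the part of such cells in its Hox counts was not tested. Of 15 other textbook targets, 13 were listed and 1 was tested, the endodermal and endothelial gene Sox17, with 2.76, 1.92 and 1.87 CPM in WT and 1.75, 1.07 and 1.99 CPM in cKO, overlapping, and with a log2 fold change of -0.45 ± 0.30 (SE) and an unadjusted edgeR p of 0.179. En1, a gene of midbrain and ventral limb and skin, had 28 counts in cKO replicate 3 and 0 elsewhere. Cdkn2a, the cell cycle inhibitor that is derepressed when PRC2 is lost in many cell types, had at most 1 count in any library, which is under the limit of 3 counts. In the same list, Cdkn2b had 14 counts in cKO replicate 3 and 0 to 2 elsewhere. Gata6 had 10 there and 1 to 4 elsewhere, and Gata3 had 9 and 0 to 2. The other untested targets, En1 aside, had at most 4 counts in any library. What lies behind these counts was not tested.

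**Figure D5:**
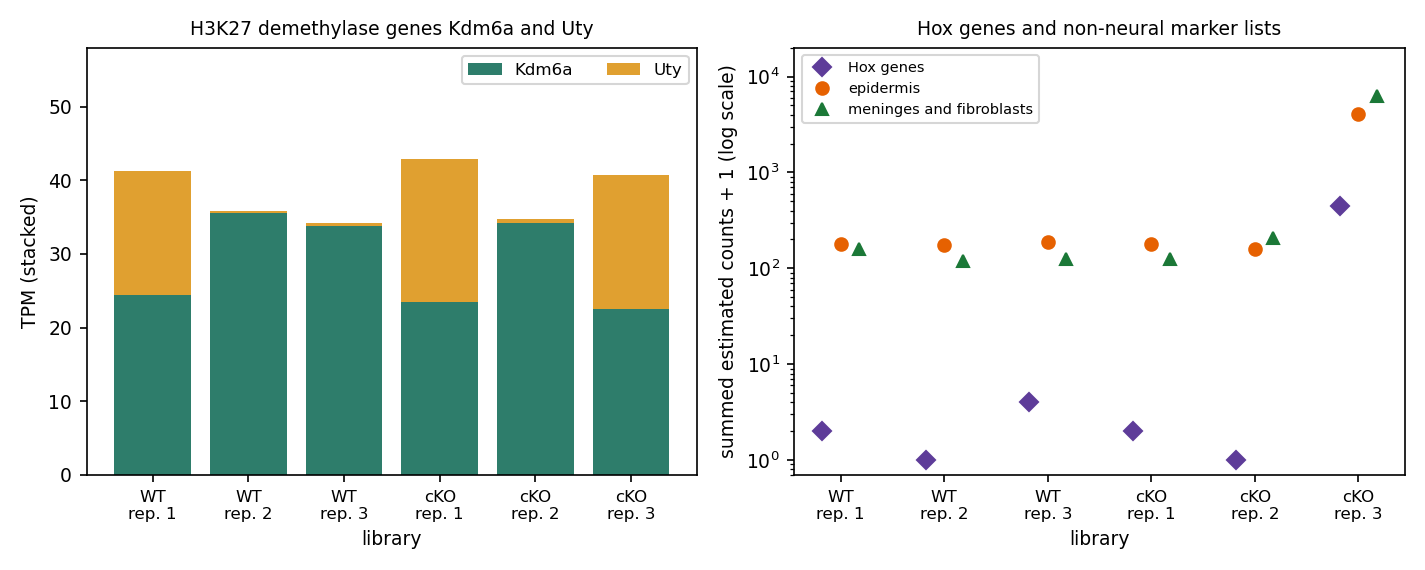
Left, stacked TPM of Kdm6a and Uty in each library. Right, summed estimated counts plus 1, on a log scale, of 23 Hox genes, 7 epidermal genes and 5 genes of meninges and fibroblasts in each library. Uty is high and Kdm6a lower in WT replicate 1 and in cKO replicates 1 and 3, and the 3 sums on the right stand out in cKO replicate 3 (442, 4066 and 6203 counts).

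Annotation bears on how cleanly the subunits could be counted. In GENCODE M21, 3 subunits overlap a protein-coding gene on the other strand: Rbbp4 overlaps Sync (0.152 TPM), Rbbp7 overlaps Txlng (23.2 TPM) and Mtf2 overlaps Tmed5 (24.7 TPM). Whether reads were assigned by strand is not given in the sources used here, so reads in the shared parts could have been assigned to either gene. The neighbours did not differ between genotypes beyond their spread, with log2 fold changes of 0.03 for both Txlng and Tmed5. On GRCm38.p6, Ezh2 spans chr6:47530274-47595270 on the minus strand and Suz12 chr11:79993106-80034123 on the plus strand, Eed chr7:89954654-89980976 on the minus strand, and Jarid2, the longest at 190870 bases, chr13:44730774-44921643 on the plus strand.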

How the data were processed

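RNA was extracted with Trizol from E13.5 cortex, and mRNA libraries were sequenced on a DNBSEQ platform. The submitters' processing notes name HISAT2 2.2.1, Bowtie2 2.4.5, RSEM 1.3.1 and GRCm38 (mm10). Their annotation and strand setting are not given in the sources used here. The deposited table holds estimated counts per gene, not normalised, of which 10.9% were not whole. The authors also give TPM, scaled for transcript length and to a common sum, and FPKM, scaled for length and depth. Averages per group, in 6 columns, were left out.

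Counts were rounded and genes filtered with filterByExpr (minimum count 10, minimum total 15), which left 13340 of 17348. TMM factors lay between 0.987 and 1.03. Genotype was tested with edgeR 4.0.16 (quasi-likelihood, R 4.3.3) with Benjamini-Hochberg adjustment over all tested genes, at a threshold of 0.05. The standard error is the absolute log2 fold change over the root of the F statistic, and 95% intervals use a t distribution with 7.92 degrees of freedom. CPM are counts scaled to the TMM-normalised library total, and 0 counts allow up to 3 counts, or 0.181 to 0.188 CPM (counting error only). Ratios of TPM were tested by two-sided exact permutation over libraries, which with 3 against 3 cannot go below 0.1.

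Alternatives were RLE factors, 2 other filters, DESeq2 1.42.0, limma-voom and limma on log2 TPM with a pseudocount of 1 or 0.1 (limma 3.58.1), the replicate number as a block, FPKM for ratios, each library left out in turn, and 2 libraries that stand apart, WT replicate 2 and cKO replicate 3, left out together. The overlap of libraries in TPM was added after the data had been seen. No 2 libraries were duplicates, with at most 1.52% of genes at equal counts. The subunits were taken by gene symbol and not by any measured value, but earlier results of these data were known. The other gene lists were chosen with those results known. All subunits and Ybx1 are named, and from each other list the genes with the highest and lowest fold change and those under a p of 0.05, besides Kdm6a, Kdm6b, Uty and Ddx3y. Marker lists of cell types are described by counts, medians and sums. Foxa2 and En2 were not analysed here. A few genes that this rule or a list would name are not reported here. The series description mentions 3 sequencing batches without saying which library was in which, so genotype could not be compared within batches. The libraries are described as biological replicates, and p-values measure the spread between these libraries. Promoter windows came from RefSeq (GRCm38.p6), in which 99.7% of gene identifiers were found, and overlapping genes from GENCODE M21.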

Additional observations from a re-analysis of the deposited data

How the results depend on the processing

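Over 15 alternatives per subunit, 0 of the 10 subunits were called at an adjusted p under 0.05. Among all tested genes at most 2 higher and 2 lower were called in any alternative, so 0 of 10 says little about the subunits. The median log2 fold change of the subunits stayed between -0.02 and 0.08. Signs turned for 3 subunits whose fold change was near 0 or imprecise. Ezh2 was at -0.016 without WT replicate 1 and -0.026 without cKO replicate 2 (range over single omissions -0.026 to 0.087). Rbbp4 was at -0.0025 with no filter, and at -0.069, -0.046 and -0.018 without WT replicate 1, cKO replicate 2 and cKO replicate 3 (range -0.069 to 0.076). Phf19 was at 0.15 without cKO replicate 1 (range -0.35 to 0.15). The log2 difference of the Ezh2 to Ezh1 ratio was -0.024 without cKO replicate 2 (range -0.024 to 0.21), and that of Mtf2 to Phf19 was -0.30 without cKO replicate 1 (range -0.30 to 0.45). The cause of these turns was not tested. At an unadjusted p under 0.05, Rbbp7 passed in edgeR with the replicate block, at a p of 0.0117 and an adjusted p of 0.526. Without cKO replicate 1 it had an edgeR p of 0.036. The order of the subunits by fold change depended on single libraries: without WT replicate 1, Rbbp7 (0.0716) lay below Aebp2 (0.0724), and Phf19 (-0.27) and Suz12 (-0.16) below Jarid2 (-0.05). Phf19 also lay below Jarid2 with limma-voom (-0.16 against -0.13) and with the replicate block (-0.15 against -0.13). With TPM in place of CPM, an alternative added after the data had been seen, 2 subunits were higher and 1 lower in cKO with no overlap, against 0 and 0 in CPM.

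Across all genes, the calls at an adjusted p under 0.05 went from 0 higher and 0 lower to 2 and 2 with DESeq2 (Sst and Dynlt1b, Ybx1 and Eef2), to 1 and 1 with the replicate block (Sst, Ybx1), to 1 and 1 with WT replicate 2 and cKO replicate 3 both left out (Tmem269, Ybx1), and to between 0 and 1 in each direction with a single library left out. In the gene lists 1 member, the interneuron gene Sst, was called with DESeq2 and with the block, and 0 otherwise. Calls at an unadjusted p under 0.05 moved from 234 higher and 242 lower to 390 higher with no filter, 148 higher with DESeq2, 476 and 614 with the block, 105 and 141 with both libraries left out, and between 121 and 571 higher and 118 and 482 lower with a single library left out, the lowest without WT replicate 3 and the highest without cKO replicate 1. Ybx1 passed the adjusted threshold with DESeq2 (-3.00), the block (-2.95), without WT replicate 2 (-3.28) and with both libraries left out (-3.49). The replicate numbers matched the libraries only in part. Deviations from the genotype means correlated at 0.406, 0.31 and -0.02 across genes for numbers 1, 2 and 3. WT replicates 1 and 2 each correlated best with the cKO library of the same number, and WT replicate 3 with cKO replicate 2 (0.263). Whether libraries of the same number were paired is not given by the labels. A change in a subunit smaller than its interval could not be seen at this number of libraries, least of all for Phf19.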
